A study of Mus musculus with 28 samples.

Results

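The genes described here are those of the cytosolic ribosome, 88 of the 21900 protein-coding mouse genes in RefSeq. They were taken by symbol: every Rpl or Rps gene with a number, with Rplp0, Rplp1, Rplp2 and Rpsa, and without the S6 kinases, Rps19bp1 and pseudogenes. The measurement was the acetylation of lysine 27 or lysine 9 of histone H3 (H3K27ac, H3K9ac) around their ends, read from the authors' ChIP-seq peak lists in cultured mouse lung adenocarcinoma cells. A region within 1 kb of a gene end was found for 82 members in each mark. Of these, 80 (H3K27ac) and 81 (H3K9ac) had a region with a peak in all 12 libraries of the mark, and these were tested.

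The study set cells resistant to PD-1 blockade against sensitive cells, and a knockdown of Fabp7 against its control. Per the labels, the Res_shFabp7 cells were resistant cells carrying a short hairpin RNA against Fabp7, a fatty acid binding protein. The Res_Ctrl cells were resistant cells of genotype Control, with library names that read NTCtrl. The Res cells were resistant, of wild-type genotype, and described as treated with PD-1 inhibitors. The Sen cells were the sensitive line, also of wild-type genotype. Each group had 3 biological replicates per mark, 24 peak lists in all, and the labels give neither the mouse strain, nor the number of hairpins, nor whether a line is a single clone. All cells were grown in RPMI-1640 with serum and fixed in 1% formaldehyde for 10 minutes. Each group also had an input library, which was not analysed here.

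Each ribosome carries a copy of most of these proteins, which surround the ribosomal RNAs of a small subunit that decodes the messenger RNA and a large subunit that joins amino acids. Their genes are among the most strongly transcribed in growing cells. Their promoters are mostly rich in CpG and short of TATA boxes, and transcription starts at a C inside a run of pyrimidines, the 5′ terminal oligopyrimidine (TOP) tract, through which mTORC1 controls translation of their messenger RNAs. H3K27ac and H3K9ac both mark the nucleosomes beside active promoters, and H3K27ac also marks enhancers.

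The deposited lists held 15856 to 28934 peaks per H3K27ac library and 11771 to 18317 per H3K9ac library. The tags inside peaks summed to 2.24 M to 10.5 M and 2.57 M to 11.5 M, and the called peaks covered 34.3 to 88.6 and 27.8 to 50.1 Mb. Because the covered length differed between libraries, tags at a member depend on how much of its region was called, and the called length is given beside the results that turn on it. Levels are in CPM, which here means tags per 1 M tags in the tested regions after TMM scaling. A tested member held 65 to 2012 tags in a single H3K27ac library and 93 to 4214 in a single H3K9ac library. Of 9 lung and epithelial markers, 5 had a region with a peak in all 12 libraries in each mark. Nkx2-1, which defines lung epithelium, and Cldn4 had none in either mark. Epcam had a region with a peak in 1 H3K27ac and 4 H3K9ac libraries, and Sftpb in 6 and 0. Of 14 markers of immune, endothelial, fibroblast and mural cells, 12 (H3K27ac) and 13 (H3K9ac) had a peak in no library. The exceptions were Col1a1, with a peak in 11 H3K27ac and 8 H3K9ac libraries, and Rgs5, with a peak in 12 H3K27ac libraries. The 5 epithelial markers differed between groups, with 0 higher and 4 (H3K27ac) or 5 (H3K9ac) lower in Res than in Sen, and with 2 or 5 higher and 0 lower in Res_Ctrl than in Res, and their part in the results was not tested. Fabp7 itself had no peak in any library of either mark, so the knockdown could not be checked at its own gene, and the peak lists hold no RNA values.

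The promoters of Rps6, Rpl38 and Rps10 are shown first. They were chosen after their values were seen, because each was higher in Res than in Sen in both marks and joins a TOP tract to an ETS motif. In all, 8 members hold both features, and of the other 5, Rps18 was higher in Res than in Sen, Rps21 was lower, and Rpl15, Rpl35 and Rplp2 passed no test there. The stretches are from RefSeq's GRCm38.p6 promoter table, 100 bases before to 30 bases from the start site on the coding strand. Capitals mark CCGGAAG, the core bound by ETS factors such as GABP, on either strand, and the pyrimidine run where a C stands at the start site and at least 4 pyrimidines follow. Rps6 (chr4:86857338-86857467, minus strand) had a tract of 9 bases, Rpl38 (chr11:114668480-114668609, plus strand) a tract of 8 and Rps10 (chr17:27635215-27635344, minus strand) a tract of 10.
Rps6: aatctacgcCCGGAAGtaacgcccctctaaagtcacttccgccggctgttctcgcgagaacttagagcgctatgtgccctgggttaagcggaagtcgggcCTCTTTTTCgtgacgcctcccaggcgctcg
Rpl38: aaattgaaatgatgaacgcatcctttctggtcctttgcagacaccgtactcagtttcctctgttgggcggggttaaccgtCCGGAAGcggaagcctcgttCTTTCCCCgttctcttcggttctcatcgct
Rps10: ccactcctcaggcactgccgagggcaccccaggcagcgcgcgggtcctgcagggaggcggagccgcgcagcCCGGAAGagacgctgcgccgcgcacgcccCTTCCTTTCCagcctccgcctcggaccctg
Rpl26 (chr11:68901466-68901595, plus strand) and Rps3a1 (chr3:86142639-86142768, minus strand) held the ETS core close to the start but no tract at the annotated base. Rpl39 (chrX:37085193-37085322, minus strand), which was near the bottom of the members for both marks, held the core on the other strand after the start.
Rpl26: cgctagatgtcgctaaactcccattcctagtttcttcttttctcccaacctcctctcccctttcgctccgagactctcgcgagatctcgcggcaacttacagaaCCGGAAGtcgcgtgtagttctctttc
Rps3a1: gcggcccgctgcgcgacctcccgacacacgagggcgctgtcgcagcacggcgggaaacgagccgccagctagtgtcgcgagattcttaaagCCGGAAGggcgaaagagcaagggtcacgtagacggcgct
Rpl39: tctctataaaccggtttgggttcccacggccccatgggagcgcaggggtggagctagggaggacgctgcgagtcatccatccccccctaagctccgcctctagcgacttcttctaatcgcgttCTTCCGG
The genes of the ribosomal stalk, which recruits the GTPase elongation factors, are shown because Rplp0 (chr5:115559367-115559496, plus strand) differed between Res_shFabp7 and Res_Ctrl. Its stretch held neither feature, while Rplp2 (chr7:141447551-141447680, plus strand) had a tract of 5 bases.
Rplp0: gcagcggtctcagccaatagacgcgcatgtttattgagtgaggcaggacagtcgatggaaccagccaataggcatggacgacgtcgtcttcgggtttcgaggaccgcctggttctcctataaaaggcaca
Rplp2: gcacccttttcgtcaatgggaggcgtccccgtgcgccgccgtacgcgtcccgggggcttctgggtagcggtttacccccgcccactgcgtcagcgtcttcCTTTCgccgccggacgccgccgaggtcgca

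Over all 80 promoter windows of the 68 members in the table, each of 300 bases from 250 before the start, CCGGAAG on either strand stood in 33.8%, against 8.86% of the 32851 windows of all genes. The GC box GGGCGG, bound by Sp1, stood in 57.5%, against 35.7% of all windows, and AAGATGG, the core bound by YY1, in 15%, against 6.34%. TATAAA stood in 10.0% (all windows 13.6%), CCAAT in 31.2% (37.4%) and CACGTG, the E-box bound by MYC, in 10.0% (7.15%). All were searched on both strands, and no motif holds another. A C at the annotated start followed by at least 4 pyrimidines stood in 18.8% of the member windows, against 2.51% of all. When the C could lie within 5 bases of the start the shares were 42.5% and 18.3%. The member windows had a median GC content of 57.8% and 21 CpG dinucleotides, against 52.7% and 7 in all windows. These matches describe letters, not bound sites.

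The tested regions lay over these starts. Of the tested members with a window, 58 of 60 (H3K27ac) and 59 of 61 (H3K9ac) had a region that covered an annotated start. The exceptions were Rpl24 and Rpl3l for H3K27ac and Rpl3l and Rpl7l1 for H3K9ac. Peak summits lay a median of 243 bases (H3K27ac) and 352 bases (H3K9ac) on the transcribed side of the start, and 49 of 59 and 54 of 60 members had theirs there. For 34 of the 79 H3K27ac regions and 35 of the 80 H3K9ac regions, a gene that codes for no ribosomal protein also had an end within 1 kb, so the acetylation there cannot be assigned to the ribosomal protein gene alone.

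Ribosomal protein genes carried more acetylation per called kb than most tested genes. The median member had 26.4 CPM per called kb for H3K27ac, against 22.9 over all 8745 genes tested, and 69 of 80 members lay above the median gene. For H3K9ac the median member had 41.2 CPM per called kb, against 32.8 over all 9406 genes tested, and 71 of 81 lay above. The order of the members was much alike in both marks, with a rank correlation of 0.93 over 80 members, a description over genes that share the same libraries.

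**Figure D1:**
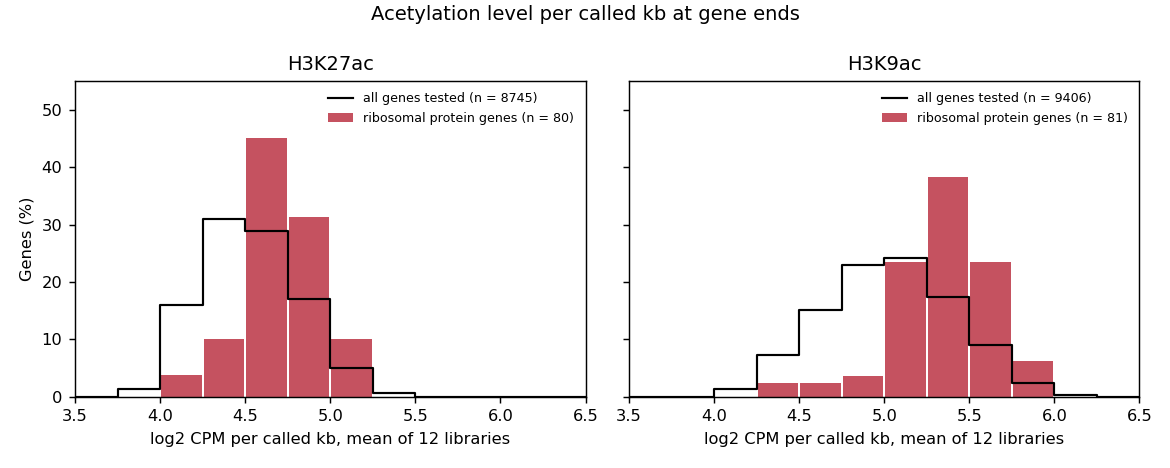
Distribution of the mean H3K27ac (left) and H3K9ac (right) level over 12 libraries on a log2 axis of CPM per called kb, as the percent of genes in each bin. Filled bars are the ribosomal protein genes (n = 80 and 81) and the black outline all genes tested (n = 8745 and 9406); the members sit to the right of the outline, with a short lower tail.

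Near the top of this order were Rps14 (35.8 CPM per called kb), Rps3a1 (35.4), Rpl23a (35.1) and Rpl21 (33.7) for H3K27ac. Rps14 and Rps3a1 code for proteins of the small subunit, and Rpl23a and Rpl21 for proteins of the large subunit. For H3K9ac Rps14 (54.8), Rps3a1 (54.6), Rpl8 (54.0) and Rpl21 (53.9) stood there. The bottom held Rpl39 (17.4), Rpl3l (18.2), Rps4x (18.4), Rplp1 (19.5) and Rpl10 (19.8) for H3K27ac, and Rpl3l (21.0), Rpl36a (21.1), Rpl39 (25.7), Rps4x (25.9) and Rpl10 (29.3) for H3K9ac. Rpl39, Rps4x, Rpl10 and Rpl36a are the X-linked members. As a description, the 3 tested X-linked members had a median of 18.4 CPM per called kb for H3K27ac, against 26.5 for the 77 autosomal members. All 65 tested X-linked genes had a median of 17.2, against 22.9 for the 8680 tested autosomal genes. For H3K9ac the 4 X-linked members had a median of 25.8, against 41.4 for the autosomal members, and all tested X-linked and autosomal genes had medians of 23 and 33. The X-linked members thus lay close to the median of X-linked genes. The promoter of Rps4x (chrX:102189362-102189491, minus strand) is shown as another X-linked member beside Rpl39, and it held neither the ETS core nor a tract in this stretch.
Rps4x: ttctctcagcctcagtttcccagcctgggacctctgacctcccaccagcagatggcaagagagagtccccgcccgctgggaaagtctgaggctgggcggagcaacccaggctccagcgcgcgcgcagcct

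Across the 4 groups the members moved little. The range of the 4 group means had a median of 0.34 on the log2 scale for H3K27ac, against 0.41 over all genes tested, and 0.30 for H3K9ac, against 0.34. A range above 1 was seen for 3 members in H3K27ac (3.75%, against 6.15% of all genes) and for 1 in H3K9ac (1.23%, against 3.58%). The spread between replicates, as the median SD of log2 CPM within a group, was 0.15 and 0.08 for members, against 0.16 and 0.10 for all genes. A test of any difference among the 4 groups, edgeR's quasi-likelihood F test with Benjamini-Hochberg adjustment over all regions, called 32 of 80 members for H3K27ac (40%, against 44.4% of all genes). It called 46 of 81 for H3K9ac (56.8%, against 65.8%). As a description, member regions took 1.2% ± 0.03 of all tags in H3K9ac peaks in Res_shFabp7, 1.18% ± 0.0451 in Res_Ctrl, 1.33% ± 0.0153 in Res and 1.22% ± 0.0306 in Sen (SD, n = 3 each). The 3 Res libraries (1.31% to 1.34%) stood above the 3 Sen libraries (1.19% to 1.25%). For H3K27ac these shares were 0.737% ± 0.0436, 0.711% ± 0.0721, 0.796% ± 0.0453 and 0.748% ± 0.0535, and the Res libraries (0.765% to 0.848%) overlapped the Sen libraries (0.715% to 0.81%).

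**Figure D2:**
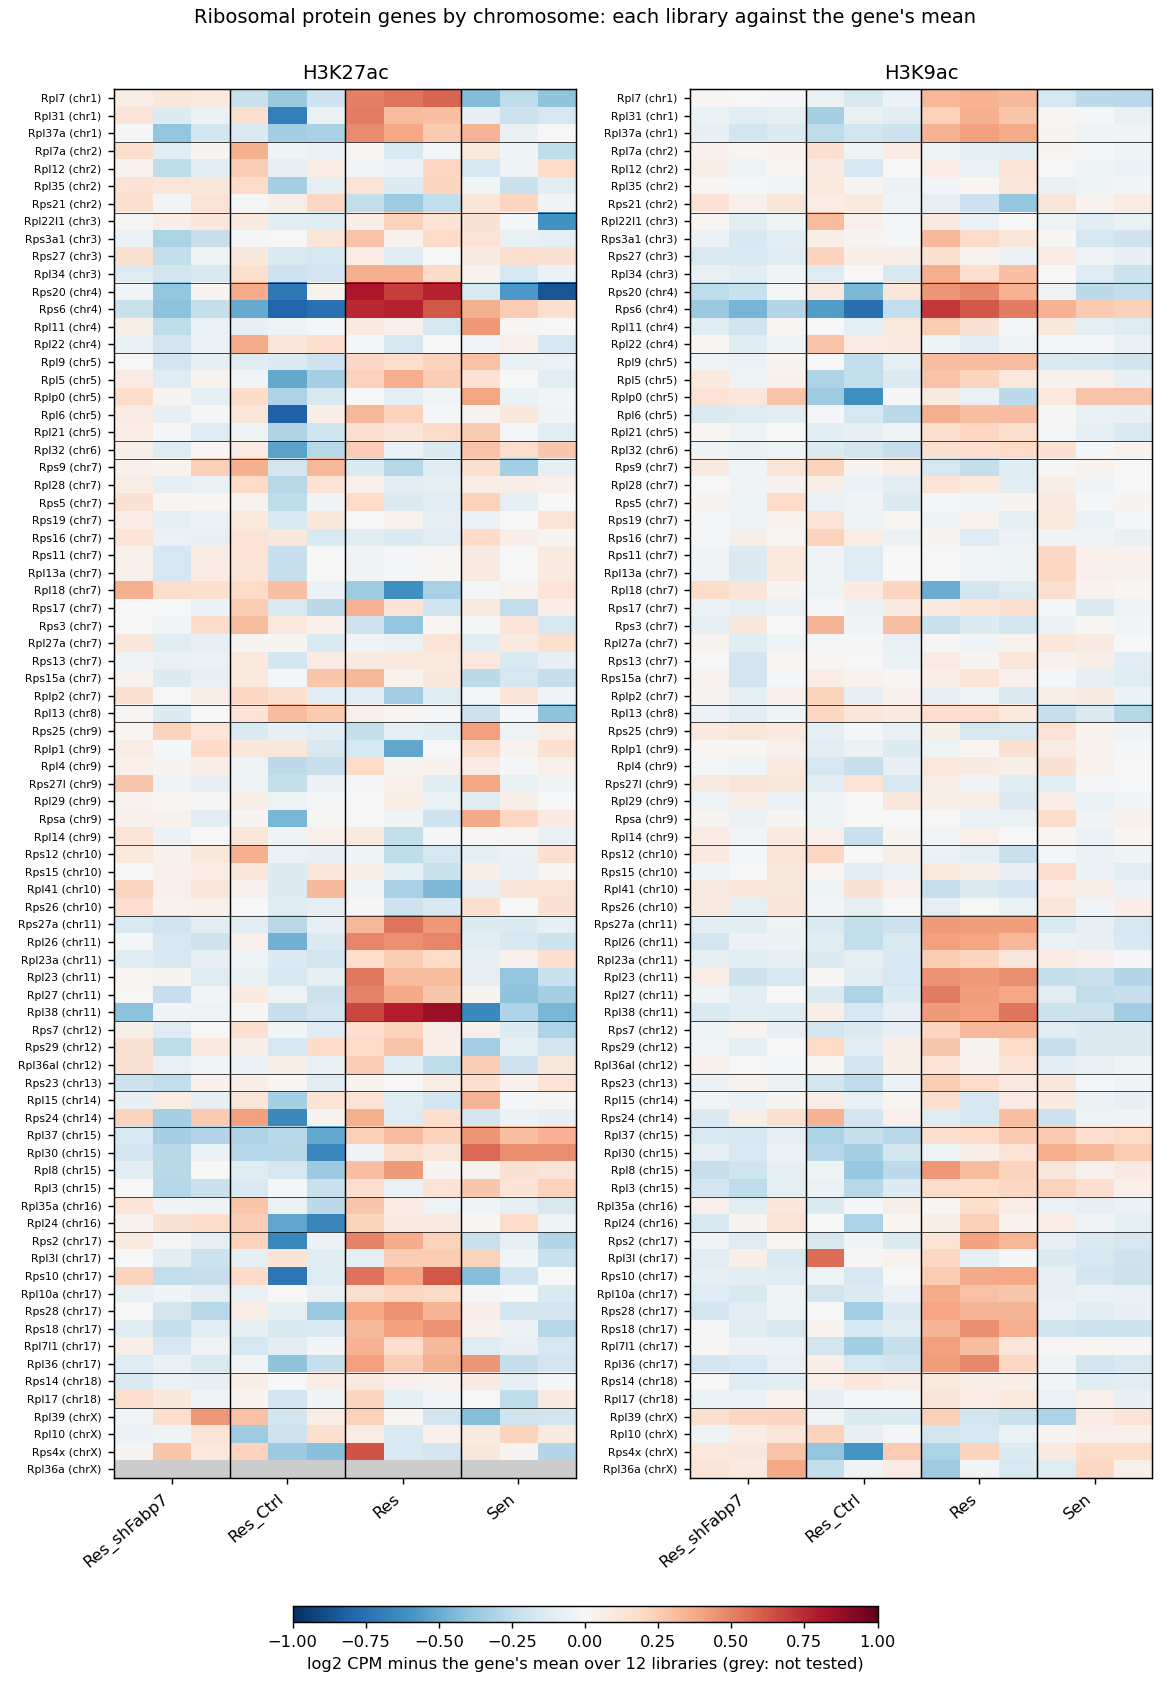
Level of tested ribosomal protein genes in each of the 12 H3K27ac (left) and 12 H3K9ac (right) libraries, as log2 CPM minus the gene's mean over the 12 libraries, with genes in rows by chromosome. Columns are grouped as Res_shFabp7, Res_Ctrl, Res and Sen, and Rpl36a is grey for H3K27ac because it was not tested; the Res columns are red for most genes of chromosomes 1, 11 and 17.

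In Res against Sen, more members were higher than lower. Res is the group described as treated with PD-1 inhibitors, so resistance and a difference in this treatment cannot be told apart here. The other resistant groups were not tested against Sen. Their member shares of H3K9ac tags, 1.18% in Res_Ctrl and 1.2% in Res_shFabp7, lay nearer to Sen (1.22%) than to Res (1.33%). For H3K27ac 17 of 80 members were higher in Res and 3 lower (25% called), where 33% of all genes tested were called, 19.1% higher and 13.9% lower. For H3K9ac 36 of 81 were higher and 7 lower (53.1%), where 54.2% of all genes were called, 29.2% higher and 25% lower. The share called was thus below or near the background in both marks. The direction leaned to Res: the median log2 change was 0.08 over members and -0.02 over all genes for H3K27ac, and 0.12 and -0.01 for H3K9ac. By subunit, 8 of 41 large subunit genes were higher and 2 lower for H3K27ac, and 8 of 31 small subunit genes were higher and 1 lower. For H3K9ac the counts were 20 higher and 4 lower of 42 large subunit genes, and 14 higher and 2 lower of 31 small subunit genes. All 20 members called for H3K27ac were also called for H3K9ac in the same direction, which is 100% of the H3K27ac calls and 46.5% of the H3K9ac calls. Both subunits therefore contributed calls in each mark. Of the members called in both marks, Rpl7l1 was tested at different regions in the 2 marks.

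Rpl38, a large subunit protein needed for translation of a subset of Hox messenger RNAs in mouse embryos, had the largest increase for H3K9ac and the largest but Rps20 for H3K27ac. Its H3K27ac region (chr11:114668055-114674915, shared with Ttyh2, positions as the deposited lists give them) had 178, 193 and 202 CPM in Res and 71.7, 90.1 and 81.4 CPM in Sen. Every Res library lay far above every Sen library. The fold change was 2.34 (log2 1.22 ± 0.12 SE of the fit, adjusted p = 5.9e-06, edgeR's quasi-likelihood test with Benjamini-Hochberg adjustment, as for every adjusted p of a region here). The called part of the region was also longer in Res, 6.72 ± 0.134 kb against 2.81 ± 0.683 kb in Sen (SD, n = 3 each), and per called base the log2 change was 0.06 (limma, adjusted p = 0.67). For H3K9ac, whose region is not shared, the libraries had 206, 204 and 222 CPM in Res and 132, 132 and 121 CPM in Sen, again without overlap. That is a fold change of 1.65 (log2 0.72 ± 0.06, adjusted p = 2.7e-08), with called lengths of 3.38 ± 0.0408 kb in Res and 3.11 ± 0.348 kb in Sen, and the call held under all 17 alternatives.

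Rps20, a protein of the head of the small subunit, had 101, 93.5 and 98.6 CPM of H3K27ac in Res (chr4:3832006-3836604) and 52.1, 38.8 and 32 CPM in Sen. The groups did not overlap, and the log2 change was 1.28 ± 0.23 (adjusted p = 0.00062). The called length was 4.08 ± 0.416 kb in Res against 1.73 ± 0.0985 kb in Sen, and per called base the log2 change was 0.16 (limma, adjusted p = 0.16). For H3K9ac it had 140, 144 and 131 CPM in Res and 101, 86.3 and 87.1 CPM in Sen, a log2 change of 0.61 ± 0.1 (adjusted p = 9.6e-05). Its surroundings moved too: of 5 other H3K27ac regions within 1 Mb, 5 were higher in Res, with a median log2 change of 0.75. Once the median of each 5 Mb window was removed, the calls of Rps20 were lost in both marks, with log2 changes of 0.62 and -0.04. Its window held under 10 tested regions, so the median removed was pooled over such sparse windows of its chromosome and was not a local one.

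Rpl7, of the large subunit, had 354, 362 and 374 CPM of H3K27ac in Res and 185, 210 and 189 CPM in Sen, at a region it shares with Rdh10 (chr1:16101909-16116351). The log2 change was 0.9 ± 0.08 (adjusted p = 2.2e-06). Called lengths were 13.3 ± 1.14 kb in Res and 7.43 ± 2.77 kb in Sen, and per called base the log2 change was 0.11 (limma, adjusted p = 0.37). For H3K9ac Rpl7 had 407, 411 and 404 CPM in Res and 286, 269 and 268 CPM in Sen, a log2 change of 0.57 ± 0.05 (adjusted p = 1.1e-08) that held under all 16 alternatives. The Res libraries were above the Sen libraries in both marks without overlap.

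Rps10, of the small subunit, had 127, 114 and 134 CPM of H3K27ac in Res and 65.2, 76 and 87.2 CPM in Sen (log2 0.7 ± 0.19, adjusted p = 0.011), and its H3K9ac log2 change was 0.52 ± 0.06 (adjusted p = 9.8e-07). Rpl26, of the large subunit, had 101, 98.6 and 101 CPM in Res and 66.6, 64.2 and 61.8 CPM in Sen (log2 0.65 ± 0.12, adjusted p = 0.00097). Both H3K27ac calls were lost per called base and with chromosome or 5 Mb medians removed. For H3K9ac, Rpl23 rose by 0.7 ± 0.07 (adjusted p = 1.1e-07), Rpl27 by 0.65 ± 0.06 (adjusted p = 1.7e-07) and Rps18 by 0.61 ± 0.06 (adjusted p = 8e-08) on the log2 scale, the last at a region shared with B3galt4, Vps52 and Wdr46. Those 3 held under all 17 alternatives.

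Fewer members were lower in Res. Rpl30, a large subunit protein, had 114, 132 and 127 CPM of H3K27ac in Res (chr15:34439289-34445182) and 173, 161 and 161 CPM in Sen. The groups did not overlap, and the log2 change was -0.41 ± 0.11 (adjusted p = 0.011), with -0.26 ± 0.06 for H3K9ac (adjusted p = 0.0011). Rpl18, at a region shared with Fam83e and Sphk2, had 128, 107 and 131 CPM in Res and 162, 168 and 179 CPM in Sen, a log2 change of -0.48 ± 0.11 (adjusted p = 0.0045). Its called length was 4.95 ± 1.09 kb in Res and 7.07 ± 2.02 kb in Sen, and per called base the sign turned, to 0.12 for H3K27ac and 0.19 for H3K9ac (limma, adjusted p = 0.32 and 0.031). Rps21, shared with Cables2, fell by 0.38 ± 0.11 (adjusted p = 0.012) and by 0.32 ± 0.07 (adjusted p = 0.001) on the log2 scale in H3K27ac and H3K9ac. The H3K27ac calls of Rpl30, Rpl18 and Rps21 were lost per called base and with either positional median removed, and that of Rps21 also without Sen replicate 2 (-0.32, adjusted p = 0.06).

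**Figure D3:**
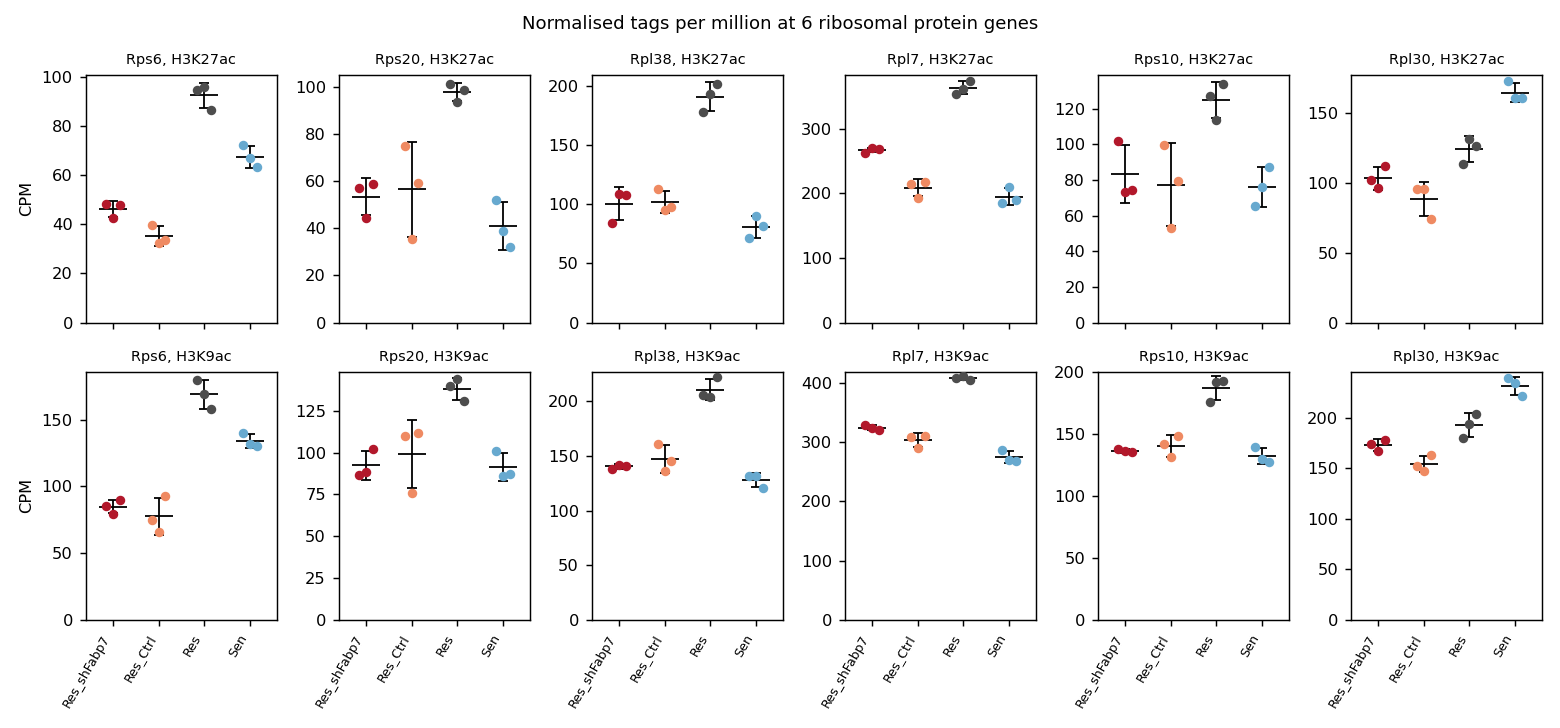
CPM of 6 ribosomal protein genes with large changes, H3K27ac above and H3K9ac below, on axes that start at 0. Each point is a library of Res_shFabp7, Res_Ctrl, Res or Sen, and the bars are the mean ± SD (n = 3); Rpl38, Rps20, Rpl7 and Rps10 are higher in Res than in Sen, Rpl30 is lower in Res than in Sen, and Rps6 is lower in Res_Ctrl than in Res.

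Where a member lies in the genome went with how it changed. On chromosomes 1, 11 and 17, chosen after their values were seen, 13 of the 17 tested members were higher in Res for H3K27ac (median log2 change 0.54) and 16 of 17 for H3K9ac (0.49). Elsewhere 4 of 63 were higher and 3 lower for H3K27ac (median -0.05), and 20 of 64 were higher and 7 lower for H3K9ac (0.04). The medians of all tested regions of these chromosomes lay on the same side: the log2 change was 0.41 and 0.35 on chromosome 11, 0.34 and 0.30 on chromosome 17, and 0.15 and 0.17 on chromosome 1, in H3K27ac and H3K9ac. Over members, the rank correlation between a member's change and its chromosome's median was 0.72 for H3K27ac (n = 80) and 0.8 for H3K9ac (n = 81), a description in which members of a chromosome share its median.

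Beyond their chromosome, most members still leaned to Res. For H3K9ac 70 of 81 members (86.4%) lay above the median of their own chromosome, where 50.7% of all genes did, and for H3K27ac 56 of 80 (70%), where 48.8% did. With the median of each chromosome removed, 10 members were called higher and 1 lower for H3K27ac, but only 6 of the 20 calls reported above were among them (Rpl34, Rpl38, Rpl7, Rps15a, Rps20 and Rps6). For H3K9ac 36 were higher and 2 lower, and 24 of the 43 calls were among them. With the median of each 5 Mb window removed, an alternative added after the data were seen, the counts were 7 and 0 for H3K27ac and 34 and 3 for H3K9ac, and 3 of the 20 and 23 of the 43 calls were among them. The other members in these counts were called only once the positional median was removed.

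**Figure D4:**
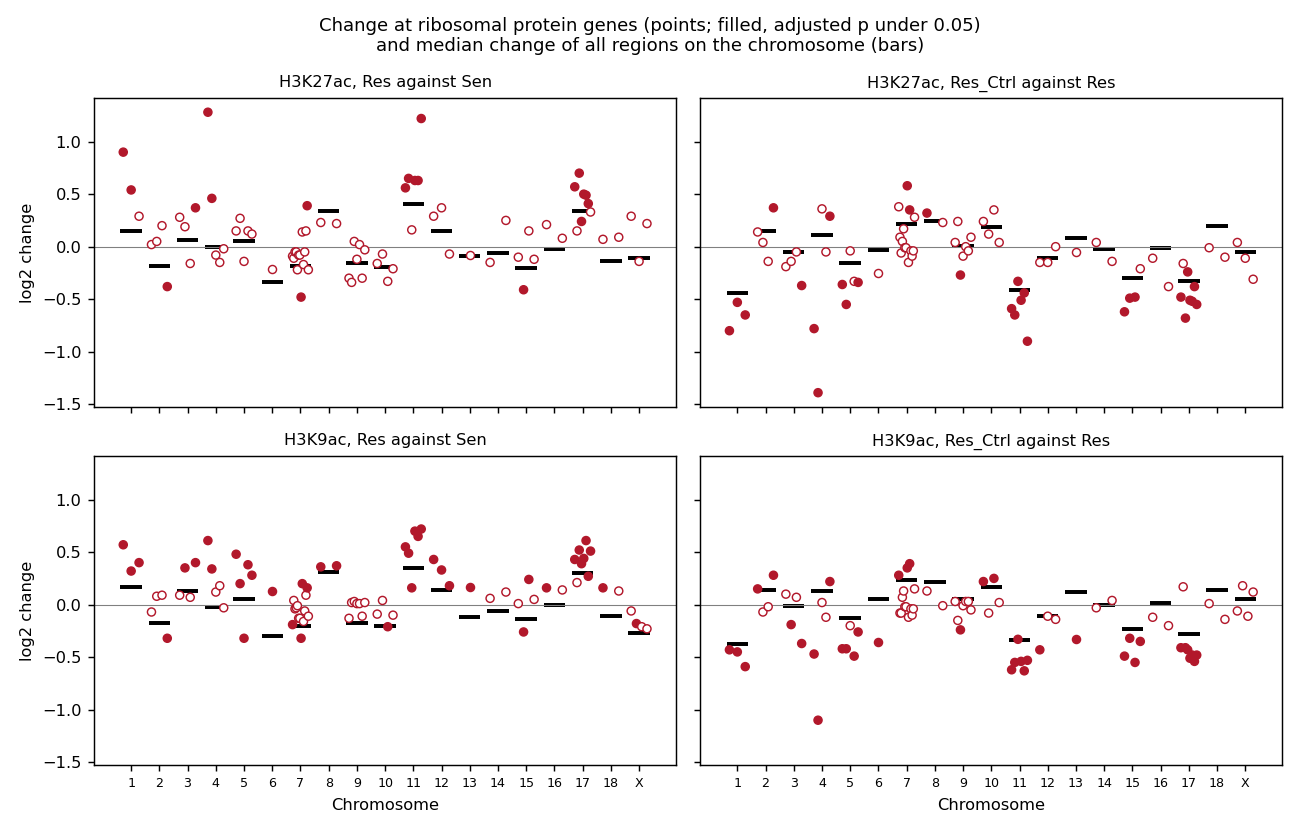
Log2 change of each tested ribosomal protein gene (points, filled where the adjusted p is under 0.05) by chromosome, with the median of all tested regions of the chromosome as a black bar, for Res against Sen (left) and Res_Ctrl against Res (right), H3K27ac above and H3K9ac below. The points of chromosomes 1, 11 and 17 lie mostly above 0 on the left and below 0 on the right, near bars that lie on the same side.

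The knockdown of Fabp7 was addressed by Res_shFabp7 against Res_Ctrl. Few members differed. For H3K27ac 1 of 80 was higher in Res_shFabp7 and 0 lower, where 0.881% of all genes were called, 0.32% higher and 0.56% lower. At an unadjusted p under 0.05 there were 3 higher and 4 lower, and DESeq2 called 1 and 0. For H3K9ac 2 of 81 were higher and 2 lower (4.94%), where 5.95% of all genes were called, 2.28% higher and 3.68% lower. There were 11 higher and 6 lower at an unadjusted p under 0.05, and 2 and 2 by DESeq2. The median log2 change over members was 0.01 for H3K27ac and 0.03 for H3K9ac, and 0.02 and 0.01 over all genes. None of the 5 calls was shared between the marks.

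The H3K27ac call was Rpl7, with 263, 270 and 268 CPM in Res_shFabp7 and 215, 193 and 217 CPM in Res_Ctrl. The groups did not overlap (log2 0.36 ± 0.08, adjusted p = 0.045), and the call was lost when any 1 of the 6 libraries compared was left out (log2 0.31 to 0.39, adjusted p = 0.074 to 0.19). Its called length was 12.1 ± 0.863 kb in Res_shFabp7 against 7.4 ± 1 kb in Res_Ctrl, and per called base the log2 change turned to -0.11 (limma, adjusted p = 0.55).

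For H3K9ac, Rplp0, the stalk protein that anchors the others to the ribosome, had 107, 105 and 118 CPM in Res_shFabp7 and 75.8, 63.3 and 95.6 CPM in Res_Ctrl (chr5:115558957-115563508; log2 0.47 ± 0.11, adjusted p = 0.019). The called length was 4.16, 4.46 and 4.27 kb in the Res_shFabp7 libraries and 1.88, 1.82 and 3.97 kb in the Res_Ctrl libraries, and per called base the log2 change turned to -0.12 (limma, adjusted p = 0.44). Rpl5, which carries the 5S RNA with Rpl11 and binds Mdm2 when ribosome assembly fails, had 138, 125 and 133 CPM in Res_shFabp7 and 104, 109 and 117 CPM in Res_Ctrl (log2 0.26 ± 0.07, adjusted p = 0.032). Both were higher in every Res_shFabp7 library than in any Res_Ctrl library. Its promoter, shown because this was the only other higher call, held neither the ETS core nor a tract in the stretch chr5:107900428-107900557 (plus strand).
Rpl5: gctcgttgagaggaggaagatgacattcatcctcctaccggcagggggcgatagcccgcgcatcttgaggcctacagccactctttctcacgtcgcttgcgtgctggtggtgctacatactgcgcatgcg
Rpl13, of the large subunit, had 181, 175 and 182 CPM in Res_shFabp7 and 217, 205 and 200 CPM in Res_Ctrl (log2 -0.21 ± 0.06, adjusted p = 0.031). Rps27, of the small subunit, had 126, 126 and 128 CPM in Res_shFabp7 and 163, 146 and 146 CPM in Res_Ctrl (log2 -0.25 ± 0.07, adjusted p = 0.028), at a region shared with Nup210l and Rab13. Both were lower in every Res_shFabp7 library. These 4 calls were each lost per called base, with the median of each chromosome or 5 Mb window removed, and without some of the libraries. Rplp0 lost it without Res_shFabp7 replicate 3 or Res_Ctrl replicate 1 or 2 (adjusted p = 0.091, 0.055 and 0.097), and Rpl5 without Res_shFabp7 replicate 1 or 3 or Res_Ctrl replicate 1 or 2 (adjusted p = 0.099 to 0.1). Rpl13 and Rps27 lost it without any Res_shFabp7 replicate or Res_Ctrl replicate 1 or 2 (adjusted p = 0.067 to 0.11 and 0.052 to 0.1).

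The control of the knockdown was next set against the wild-type resistant cells, Res_Ctrl against Res, groups that the labels both call resistant. The labels describe Res as treated with PD-1 inhibitors and do not say whether Res_Ctrl and Res_shFabp7 were, so the control of the knockdown and a difference in this treatment cannot be told apart here. These are the same Res libraries as in the comparison with Sen, so the values of the 2 comparisons are not independent of each other. For H3K27ac 5 of 80 members were higher in Res_Ctrl and 26 lower (38.8%), where 33.4% of all genes were called, 12.2% higher and 21.2% lower. With the replicate number as a block, which takes same-numbered libraries as paired, 8 were higher and 26 lower, with Rplp2 and Rps9 among those added (adjusted p = 0.047 and 0.021). Without Res_Ctrl replicate 1 the higher count was 2, and without Res replicate 2 it was 1. For H3K9ac 8 of 81 were higher and 32 lower (49.4%), where 48.4% of all genes were called, 21.7% higher and 26.7% lower, and without Res_Ctrl replicate 1 the higher count was 5. The median log2 change was -0.11 over members in each mark, against -0.05 (H3K27ac) and -0.01 (H3K9ac) over all genes.

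Rps6, whose protein is the small subunit target of the S6 kinases downstream of mTORC1, changed most. Its H3K27ac region (chr4:86855147-86858648) had 39.8, 32.5 and 33.6 CPM in Res_Ctrl and 94.9, 96.1 and 86.7 CPM in Res. Res_shFabp7 had 48.2, 42.4 and 47.8 CPM, and Sen 72.2, 67.1 and 63.3 CPM. The groups did not overlap: Res_Ctrl lay below Res_shFabp7, both below Sen, and Sen below Res. Res_Ctrl was 2.62-fold lower than Res (log2 -1.39 ± 0.12, adjusted p = 1.7e-06), and this was the only H3K27ac call on a member that held under all 17 alternatives. The called length was 1.69 ± 0.197 kb in Res_Ctrl and 3.36 ± 0.116 kb in Res, and per called base the log2 change was -0.44 (limma, adjusted p = 0.00014).

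The H3K9ac levels of Rps6 (chr4:86854938-86858867) followed the same order. They were 74.6, 65.4 and 92.8 CPM in Res_Ctrl and 180, 169 and 158 CPM in Res, with 85.2, 79.6 and 89.7 CPM in Res_shFabp7 and 140, 132 and 130 CPM in Sen. Res_Ctrl was 2.14-fold lower than Res (log2 -1.1 ± 0.1, adjusted p = 6.4e-08). Res was higher than Sen by a log2 change of 0.46 ± 0.11 for H3K27ac (adjusted p = 0.0053) and 0.34 ± 0.08 for H3K9ac (adjusted p = 0.0021). Between Res_shFabp7 and Res_Ctrl the log2 changes were 0.38 and 0.1, which did not pass the test (adjusted p = 0.13 and 0.57), and the libraries overlapped for H3K9ac.

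The regions around Rps6 moved with it. Of the 5 other H3K27ac regions within 1 Mb, all at lower coordinates and among them those of Plin2, Dennd4c, Haus6 and Rraga (named after their values were seen), 5 were lower in Res_Ctrl than in Res, by a median log2 change of -0.96 (-1.21 to -0.71). All 5 were higher in Res than in Sen, with a median of 1.19 (1.09 to 1.52), which is more than at Rps6 itself. For H3K9ac the 4 neighbours were lower in Res_Ctrl (median -0.98) and higher in Res than in Sen (median 1.01). The 5 Mb window of Rps6 held under 10 tested regions, so under that alternative the median removed was pooled over such sparse windows of its chromosome. It was not the median of these neighbours. With it removed, Rps6 remained lower in Res_Ctrl than in Res, with log2 changes of -0.95 and -0.69. The change of Rps6 between Res and Sen turned to -0.2 for H3K27ac and -0.31 for H3K9ac (adjusted p = 0.19 and 0.0076). No region was tested in the 5 Mb on the higher-coordinate side of Rps6. The part that the change of this whole stretch plays in the values of Rps6 was not tested.

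**Figure D5:**
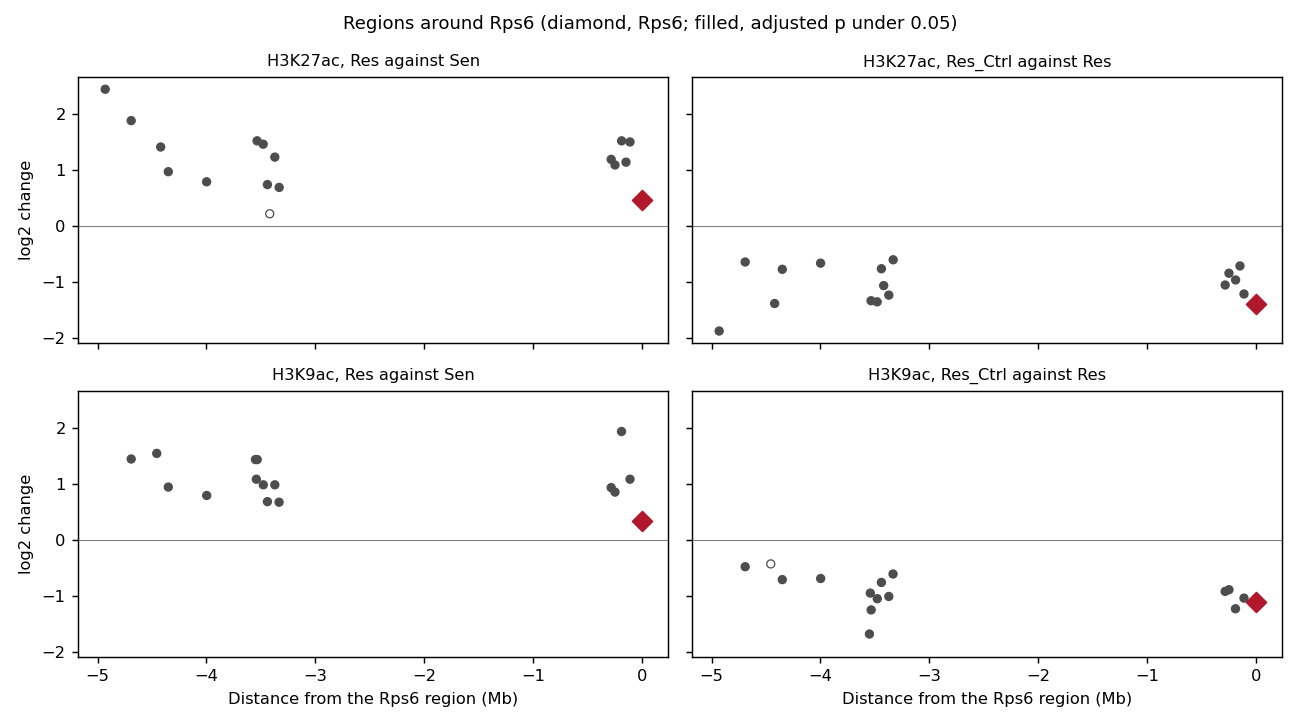
Log2 change of the tested regions in the 5 Mb around Rps6 by distance from its region in Mb, for Res against Sen (left) and Res_Ctrl against Res (right), H3K27ac above and H3K9ac below. Diamonds are Rps6, circles the other regions, filled where the adjusted p is under 0.05; all circles lie above 0 on the left and below 0 on the right, and none lies at a positive distance.

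The next largest H3K27ac decreases were at Rpl38, Rpl7, Rps20 and Rps10. Rpl38 had 113, 95.4 and 97.9 CPM of H3K27ac in Res_Ctrl, against the 178 to 202 CPM in Res given above (log2 -0.9 ± 0.12, adjusted p = 7.3e-05). Its H3K9ac log2 change was -0.53 ± 0.07 (adjusted p = 4e-06). Rpl7 fell by 0.8 ± 0.08 and Rps20 by 0.78 ± 0.22 on the log2 scale for H3K27ac (adjusted p = 5.4e-06 and 0.012), with 74.8, 35.2 and 59.2 CPM of Rps20 in Res_Ctrl. Rps10 fell by 0.68 ± 0.19 (adjusted p = 0.012). Per called base these 4 H3K27ac changes were -0.07 for Rpl38, 0 for Rpl7, -0.09 for Rps20 and -0.04 for Rps10, and none passed the test.

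For H3K9ac the members that followed Rps6 were Rpl27, which fell by 0.63 ± 0.07, Rps27a, which codes for ubiquitin fused to a small subunit protein and fell by 0.62 ± 0.05, Rpl37a, which fell by 0.59 ± 0.06, and Rpl26, which fell by 0.55 ± 0.06. Their adjusted p-values were 9.1e-07, 5.1e-08, 5.5e-07 and 2.3e-06. Rps27a shares its region with Clhc1 and Mtif2. Its H3K9ac levels were 150, 141 and 143 CPM in Res_Ctrl and 223, 222 and 222 CPM in Res, without overlap. The calls of Rpl27, Rpl37a and Rpl26 held under all 17 alternatives, and that of Rps27a was lost with the median of each 5 Mb window removed.

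Members higher in Res_Ctrl than in Res were fewer. Rpl18 rose by 0.58 ± 0.11 (adjusted p = 0.0012) and 0.35 ± 0.08 (adjusted p = 0.0021) on the log2 scale in H3K27ac and H3K9ac, with 188, 201 and 157 CPM of H3K27ac in Res_Ctrl against 128, 107 and 131 CPM in Res, but per called base the sign turned, to -0.09 and -0.2. Rps3, a small subunit protein at the mRNA entry channel, had 152, 117 and 148 CPM of H3K9ac in Res_Ctrl and 103, 109 and 106 CPM in Res (log2 0.39 ± 0.09, adjusted p = 0.0013). Its H3K27ac change was 0.35 ± 0.13 (adjusted p = 0.046), and per called base it was -0.04, a call lost without Res_Ctrl replicate 1 or 2 or Res replicate 1 or 2 (adjusted p = 0.059 to 0.18). Other H3K27ac calls were Rps21 (0.37) and Rpl22 (0.29), which were lost without 2 and 4 of the 6 libraries in turn (adjusted p = 0.052 to 0.14), and other large H3K9ac changes were Rps21 (0.28), Rps9 (0.28) and Rpl41 (0.25). The H3K27ac calls of Rps3, Rps21 and Rpl22 were lost per called base and with either positional median removed. So were the H3K9ac calls of Rps3, Rps9 and Rpl41. The H3K9ac calls of Rps21 and Rpl18 were lost with either positional median removed.

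By chromosome, 16 of the 17 members on chromosomes 1, 11 and 17 were lower in Res_Ctrl in each mark, with median log2 changes of -0.52 and -0.48. Elsewhere 5 of 63 members were higher and 10 lower for H3K27ac, and 8 of 64 were higher and 16 lower for H3K9ac. The medians of all tested regions were -0.44 and -0.37 on chromosome 1, -0.41 and -0.34 on chromosome 11, -0.33 and -0.28 on chromosome 17 and -0.3 and -0.23 on chromosome 15, against 0.22 and 0.23 on chromosome 7. Of the members, 58 of 80 (H3K27ac) and 65 of 81 (H3K9ac) lay below the median of their own chromosome. A share of 27.5% and 19.8% lay above it, where 45.9% and 46.6% of all genes did. With chromosome medians removed, 1 member was higher and 10 lower for H3K27ac, with 9 of the 31 calls among them, and 1 higher and 38 lower for H3K9ac, with 23 of the 40. Of the 31 H3K27ac calls, 30 were called the same way for H3K9ac, which is 96.8% of the H3K27ac calls and 75% of the H3K9ac calls. These 30 include Rpl7l1, which was tested at different regions in the 2 marks.

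The Rpl19 gene shows what the 1 kb rule can miss. The region within 1 kb of its ends, shared with Cacnb1, had a peak in 6 H3K27ac and 7 H3K9ac libraries and was not tested, whereas a region over its annotated RefSeq start, 3569 bases from the gene end used, had a peak in all 12 libraries of each mark. That region (chr11:98025528-98029398) had 159, 167 and 163 CPM of H3K27ac in Res and 145, 119 and 110 CPM in Sen, with no overlap (log2 0.4 ± 0.11, adjusted p = 0.011). Res_shFabp7 had 106, 102 and 107 CPM and Res_Ctrl 126, 104 and 107 CPM. For H3K9ac Res was above Sen by 0.52 ± 0.08 (adjusted p = 3e-05), and Res_Ctrl below Res by a log2 change of -0.54 ± 0.08 (adjusted p = 5.2e-05). All tested regions of chromosome 11 had a median of 0.41 for H3K27ac in Res against Sen, so Rpl19 changed there as its chromosome did. For H3K9ac the chromosome's medians were 0.35 in Res against Sen and -0.34 in Res_Ctrl against Res. Rpl36a, which shares its region with Gla, had a peak in 10 of 12 H3K27ac libraries and was tested for H3K9ac only.

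Among the paralogues, Rpl7l1 changed. It was higher in Res than in Sen for H3K27ac (log2 0.41 ± 0.1, adjusted p = 0.0055) and H3K9ac (0.27 ± 0.07, adjusted p = 0.0028), and lower in Res_Ctrl than in Res (-0.38 ± 0.1 and -0.54 ± 0.08, adjusted p = 0.0082 and 1.8e-05), at different regions in the 2 marks. With the median of each chromosome or 5 Mb window removed, both calls between Res and Sen were lost, with the H3K9ac change at -0.03, as was the H3K27ac call between Res_Ctrl and Res. The H3K27ac call between Res and Sen was also lost with regions merged over the 6 libraries alone (log2 0.17, adjusted p = 0.31). Rpl36al was higher in Res than in Sen for H3K9ac (0.18 ± 0.06, adjusted p = 0.018), with -0.07 for H3K27ac, and lost the call without Res replicate 1 or 3 (adjusted p = 0.056 and 0.06). The call of Rpl36al was also lost with the median of each chromosome or 5 Mb window removed, with a log2 change of -0.04 under the latter. Rpl22l1, Rps27l and Rpl3l, the muscle form of Rpl3, passed no test, with log2 changes between Res and Sen of 0.28, -0.12 and 0.15 for H3K27ac and 0.09, 0.01 and 0.21 for H3K9ac. Rpl3l shares its region, which lies over no annotated start of its own, with Msrb1. No region was found in either mark for 6 members: the intronless or testis-expressed copies Rpl10l and Rpl39l, and Rpl32l, Rpl37rt, Rps23rg1 and Rps27rt.

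Rps27rt is shown with Rps27 because the copy shares bases with its parent from the start site on. From position 2 of Rps27 and position 1 of Rps27rt, counted from the annotated start, the 2 windows share 38 bases. The longest run shared by the other 6 copies and their parents was 7 to 10 bases. Rps27 (chr3:90213619-90213748, minus strand) lies under a region with a peak in all 12 libraries of each mark, and Rps27rt (chr9:114982710-114982839, minus strand) had no peak within 1 kb in any library.
Rps27: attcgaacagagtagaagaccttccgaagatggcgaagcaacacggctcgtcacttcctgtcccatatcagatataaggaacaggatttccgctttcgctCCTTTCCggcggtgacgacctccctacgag
Rps27rt: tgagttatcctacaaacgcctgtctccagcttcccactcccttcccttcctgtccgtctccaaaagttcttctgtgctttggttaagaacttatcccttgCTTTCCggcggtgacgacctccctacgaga

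Of the stalk and 5S particle genes and Rpsa, Rpl5 and Rplp0 were called and Rplp1, Rplp2, Rpsa and Rpl11 were not. Between Res and Sen the log2 changes were -0.34 for Rplp1, -0.22 for Rplp2, -0.14 for Rplp0 and -0.3 for Rpsa in H3K27ac, which did not pass the test (adjusted p = 0.073, 0.14, 0.53 and 0.084). Rplp0 fell by 0.32 ± 0.11 for H3K9ac (adjusted p = 0.018), but per called base its sign turned, to 0.42 (limma, adjusted p = 0.00055), and the call was lost without Res replicate 3 or Sen replicate 2 or 3 (adjusted p = 0.1, 0.064 and 0.065). Rpl5 was higher in Res for H3K9ac (0.2 ± 0.06, adjusted p = 0.013, lost without Res replicate 1 or Sen replicate 3 at 0.063 and 0.076). That call was also lost with the median of each chromosome removed and per called base, where the sign turned, to -0.1 (limma, adjusted p = 0.2). Rpl5 was lower in Res_Ctrl than in Res in both marks (-0.55 ± 0.13 and -0.42 ± 0.07, adjusted p = 0.0035 and 0.00011), and both calls were lost per called base. Rpl11, its partner in the 5S particle, passed no test, with changes of -0.15 and 0.18 between Res and Sen and -0.05 and -0.12 between Res_Ctrl and Res.

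Genes whose human counterparts are mutated in Diamond-Blackfan anaemia, a failure of red cell formation, made up 20 tested members. Of these 7 were higher in Res than in Sen and 1 lower for H3K27ac (40% called, against 33% of all genes), and 12 higher and 1 lower for H3K9ac (65%, against 54.2%). In Res_Ctrl against Res 1 was higher and 7 lower for H3K27ac (40%, against 33.4%), and 1 higher and 8 lower for H3K9ac (45%, against 48.4%). The 23 members that host small nucleolar RNAs in their introns had 3 higher and 1 lower in Res than in Sen for H3K27ac (17.4%, against 33% of all genes), and 8 higher and 2 lower for H3K9ac (43.5%, against 54.2%). In Res_Ctrl against Res they had 1 higher and 9 lower for H3K27ac (43.5%, against 33.4%), and 3 higher and 11 lower for H3K9ac (60.9%, against 48.4%).

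Other genes of the translation machinery changed in both directions between Res and Sen. Over all genes tested, 19.1% were higher and 13.9% lower for H3K27ac, and 29.2% and 25% for H3K9ac. Of 3 genes in the list of ubiquitin fusions and Rack1, 2 were higher and 0 lower in each mark, among them Rack1, a scaffold on the small subunit, by a log2 change of 0.64 ± 0.1 and 0.55 ± 0.07. For the genes of these lists and the regulators below, values per called base or with positional medians removed are not given. Of 20 translation factors with TOP messenger RNAs, 1 was higher and 4 lower for H3K27ac, and 4 higher and 7 lower for H3K9ac. Ribosome biogenesis genes had 5 higher and 4 lower of 27 for H3K27ac, and 12 higher and 10 lower of 29 for H3K9ac. Mitochondrial ribosomal protein genes had 9 higher and 6 lower of 71, and 20 higher and 17 lower of 76. Their level per called kb had a median of 21.7 and 32.0 CPM, below that of the cytosolic members, while the TOP translation factors had 26.5 and 41.7.

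Among 16 tested regulators of ribosomal protein genes, 3 were higher in Res than in Sen and 2 lower for H3K27ac, and 8 higher and 3 lower for H3K9ac. The largest changes were at Eif4ebp1, which codes for an inhibitor of cap-dependent translation under mTORC1 and was higher in Res (log2 1.17 ± 0.09 and 1.24 ± 0.06), and at Rps6ka1, a kinase of the S6 protein, which was lower in Res (-1.06 ± 0.11 and -0.96 ± 0.08). Myc, which drives ribosome synthesis, was higher in Res in both marks (0.37 ± 0.09 and 0.48 ± 0.05), as was Tbp (0.42 and 0.19), while Nrf1 was lower (-0.41 and -0.18). In Res_Ctrl against Res, Myc was lower (-0.79 and -0.75) and Rps6ka1 higher (1.15 and 1.24). In Res_shFabp7 against Res_Ctrl, 1 of 16 regulators was higher and 0 lower for H3K27ac, where 0.32% of all genes were higher and 0.56% lower. For H3K9ac 1 of 16 was higher and 1 lower, where 2.28% of all genes were higher and 3.68% lower. The higher gene was Yy1 in both marks, by 0.52 ± 0.1 (adjusted p = 0.031) and 0.42 ± 0.06 (adjusted p = 0.00048), and the lower was Rps6ka1 (-0.26 ± 0.07, adjusted p = 0.034). In Res_Ctrl against Res, the H3K27ac counts of higher and lower were 2 and 5 of 16 regulators and 1 and 7 of 20 TOP factors. They were 4 and 9 of 27 ribosome biogenesis genes and 2 and 13 of 71 mitochondrial ribosomal protein genes. In H3K9ac they were 2 and 9 of 16, 0 and 8 of 20, 5 and 11 of 29, and 10 and 27 of 76. Over all genes tested, 12.2% were higher and 21.2% lower for H3K27ac, and 21.7% and 26.7% for H3K9ac.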

How the data were processed

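The authors' deposited peak lists (mm10, positions as the lists give them) give for each peak the count of tags, a score from the p-value of the peak on a log10 scale and a fold enrichment. Per the submitters' processing notes, the aligner was Bowtie 1.1.2 and the peak caller MACS 1.4.2. Per the labels, reads were single and 50 bases long, with 53 M to 158 M per sample. The deposited score was used for 1 alternative threshold and the deposited fold ratio was not used. Whether the inputs served as the background of the peak calls is not given in the sources used here.

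Peaks of the 12 libraries of a mark were merged where they overlapped by at least 1 base, and tags were summed per library. The regions with a peak in all 12 libraries, 11679 of 32703 (H3K27ac) and 10149 of 20543 (H3K9ac), were tested with edgeR 4.0.16 (R 4.3.3), TMM and the quasi-likelihood test, all 12 libraries in 1 fit, with Benjamini-Hochberg adjustment over all regions and a threshold of 0.05. Regions need a peak in every library, so a member lost in any group was not tested. A gene's region was the one within 1 kb of either gene end with the highest mean CPM. The script was tested on simulated data. No 2 replicates of the same group and mark shared a peak of identical position and tag count, and other pairs of libraries were not compared.

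Alternatives were DESeq2 1.42.0, a mean of at least 200 tags, tags per called base (limma 3.58.1), the median of each chromosome removed, regions within 2500 bases, a peak threshold of 1e-10, merging from an overlap of 200 bases, regions of the 6 libraries compared, a replicate block and leaving out each library. The median of each 5 Mb window removed and regions over RefSeq starts were added after seeing the data. Regions in windows with under 10 tested regions were pooled over such windows of the chromosome, and the median of the pool was removed.

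Replicate numbers are shared by the groups. Same-numbered H3K27ac libraries deviated together in Res_shFabp7 and Res_Ctrl (correlations 0.187 to 0.419) and in Res_Ctrl and Res (0.102 to 0.382), above 0.1 in every pair. On this data check alone the numbers were taken as a possible pairing of these libraries. The main tests did not pair them, and the numbers entered only the replicate block alternative. Differently numbered pairs that hold a replicate 1 were negative. However, Res_Ctrl replicate 2 and Res replicate 3 reached 0.167, above the same-numbered replicates 2 (0.102) and 3 (0.105). Res_shFabp7 replicate 2 and Res_Ctrl replicate 3 reached 0.162. The check therefore cannot show that replicates 2 and 3 pair by number. In the other 4 comparisons at least 1 pair was below 0.1.

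Genes named are the 5 largest called changes each way per mark and comparison, the 5 highest and 5 lowest levels per called kb, paralogues, stalk and 5S proteins with Rpsa, and members with no or partial regions. Some genes that this rule or a list names are not reported here. The members and lists were chosen with earlier results of these data known.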

Additional observations from a re-analysis of the deposited data

Results flagged for a closer look

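Signal outside the main measurement was found at Rpl19, a large subunit gene whose region within 1 kb of its ends was not tested. The region over its annotated start had a peak in all 12 libraries of each mark, with a mean of 536 tags per library for H3K27ac and 978 for H3K9ac. Its values by group stand in the report.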

How the results depend on the processing

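Of 150 recomputed counts over 14 results, 114 stayed within 1.5 times the reported count and 36 moved, and no alternative moved the median of all regions by over 0.1 (log2). The cause of each move was not tested. Tags were summed over the called peak only, so levels depend on its called length, and at 65 tags in a library the counting error is large.

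For H3K27ac in Res against Sen, the 3 lower members became 6 with a mean of at least 200 tags, 5 with the replicate block, 1 with chromosome medians removed and 0 with 5 Mb medians removed, and the 17 higher became 10 per called base, 10 with chromosome medians and 7 with 5 Mb medians removed. In Res_shFabp7 against Res_Ctrl the 1 higher H3K27ac call became 0 under the last 3, and 0 over RefSeq starts, a set that does not hold the called gene, Rpl7. In Res_Ctrl against Res the 5 higher became 8 by DESeq2, at 200 tags, at a threshold of 1e-10, at an overlap of 200 bases and with the replicate block, 3 in regions of the 6 libraries, and 1 per called base and with either positional median removed. The 26 lower became 17 per called base, 10 with chromosome and 9 with 5 Mb medians removed. The count called anywhere fell to 9 and 10 with chromosome and 5 Mb medians removed.

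For H3K9ac the 7 members lower in Res than in Sen became 2 and 3 with chromosome and 5 Mb medians removed. In Res_shFabp7 against Res_Ctrl the 2 higher became 1 per called base and 0 with either positional median removed, and the 2 lower became 0 under all 3. The 8 higher in Res_Ctrl than in Res became 1 under all 3. The replicate block changed no other count by over 1.5 times.

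Leaving out 1 library gave, for H3K27ac, 13 to 23 higher and 3 to 4 lower in Res against Sen, 0 to 1 higher and 0 to 0 lower in Res_shFabp7 against Res_Ctrl, 1 to 5 higher and 18 to 27 lower in Res_Ctrl against Res, and 22 to 33 called anywhere. For H3K9ac it gave 31 to 36 and 4 to 7, 0 to 3 and 0 to 2, 5 to 10 and 31 to 34, and 44 to 50. The 4 lower in Res than in Sen came without Sen replicate 2, and the H3K9ac counts of 0 in Res_shFabp7 against Res_Ctrl without Res_shFabp7 replicate 3 or Res_Ctrl replicates 1 or 2 (higher) and without any Res_shFabp7 replicate or Res_Ctrl replicate 1 (lower).

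Signs turned for single members. Per called base, H3K27ac log2 changes became 0.12 for Rpl18 in Res against Sen, -0.11 for Rpl7 in Res_shFabp7 against Res_Ctrl, and -0.09 for Rpl18, 0 for Rpl7 and -0.04 for Rps3 in Res_Ctrl against Res. H3K9ac changes became 0.19 for Rpl18, -0.01 for Rpl32, -0.1 for Rpl5, 0.42 for Rplp0, -0.03 for Rps15a and -0.01 for Rps23 in Res against Sen, -0.12 for Rplp0 and 0.01 for Rps27 in Res_shFabp7 against Res_Ctrl, and -0.2 for Rpl18, -0.03 for Rpl22 and -0.04 for Rpl41 in Res_Ctrl against Res. With chromosome medians removed, they became -0.08 for Rpl10a (H3K27ac, Res against Sen), 0.08 for Rpl10a and 0.07 for Rpl23a (H3K27ac, Res_Ctrl against Res), and 0.08 for Rpl10, -0.19 for Rpl23a, -0.03 for Rpl7l1 and 0 for Rps9 (H3K9ac, Res against Sen). With 5 Mb medians removed, H3K27ac changes became -0.04 for Rpl10a and -0.2 for Rps6 in Res against Sen, and 0.03 for Rpl10a, -0.04 for Rpl22, 0.03 for Rpl23a and 0.06 for Rpl30 in Res_Ctrl against Res. H3K9ac changes became 0.1 for Rpl10, -0.21 for Rpl23a, -0.01 for Rpl31, -0.04 for Rpl36al, -0.03 for Rpl7l1, -0.04 for Rps20 and -0.31 for Rps6 in Res against Sen, and -0.08 for Rpl22, 0.01 for Rpl23a and -0.04 for Rpl7a in Res_Ctrl against Res.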

Other observations

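Of the 43 members called for H3K9ac in Res against Sen, 12 kept the call under every alternative run for them: Rpl23, Rpl27, Rpl34, Rpl36, Rpl37a, Rpl38, Rpl6, Rpl7, Rpl8, Rps18, Rps3a1 and Rps7. Of the 40 called in Res_Ctrl against Res, 18 did, among them Rps6, Rpl38, Rpl27 and Rpl9. For H3K27ac the counts were 0 of 20 and 1 of 31, the last being Rps6. These members were listed after their values were seen.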
